A study of Drosophila melanogaster with 3 samples.

Results

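The genes of the Mediator complex were followed through a chromatin immunoprecipitation and sequencing experiment on Elba2 in Drosophila melanogaster embryos. They were taken from the Ensembl annotation as the protein-coding genes named MED and a number, of which there were 25, together with skd, kto, CycC and Cdk8. This gave 29 of the 13968 protein-coding genes on the chromosome arms used. The subunit gene ix, for which RefSeq gives MED29 as a synonym, does not carry such a name and was left out. Embryos of both sexes aged 0 to 4 h came from a transgenic line, CG9883-GFP, that expresses Elba2 with a green fluorescent protein at its C-terminal end. Whole embryos were used, so the cells in which Elba2 was bound are not known, and the labels do not say whether the line keeps an untagged copy of Elba2. Per the sample descriptions the pull-down used an antibody to GFP, although the antibody field names Elba2. It was made in 3 biological replicates, which form 1 group, and no control sample was among them.

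Mediator is a large coactivator that sits between transcription factors bound to DNA and RNA polymerase II. Its head and middle modules touch the polymerase, its tail module is the main contact for activators, and MED14 forms the backbone that holds these together. A separable kinase module, made of Cdk8, cyclin C and the proteins of kto (MED12) and skd (MED13), controls access to the polymerase. Elba2 is a BEN-domain subunit of ELBA, an insulator-binding complex of the early embryo. Elba2 binding at these genes is therefore binding near the starts of genes of the transcription machinery, some of them shared with neighbouring genes. It says nothing about where Mediator itself sits.

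A gene was counted as bound where a summit of the authors' optimal set, taken by irreproducible discovery rate (IDR), lay within 500 bp of an annotated transcription start site (TSS) of the gene. The summit is the position of the highest signal in a region, and regions were ranked from 1, the strongest, by the authors' signal value within each list. The optimal set held 3276 regions, the pooled list 28496 and the lists of replicates 1, 2 and 3 held 29295, 30000 and 30000. Read depth is unknown, so weak regions cannot be compared between replicates by level. All coordinates are on build dm6.

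The strongest binding lay in gaps between the start of a Mediator gene and that of a neighbour on the other strand. The DNA around 6 such summits shows what sequence Elba2 signal centred on, in order of signal. Each stretch is the plus strand, up to 100 bp to either side of the summit and kept outside annotated exons. Capitals mark the 1 copy of TATCGATA, the DRE word bound by the promoter factors Dref and BEAF-32. No other searched word lay in these stretches. They do not show the M1BP word GGTCACAC, which lay 34 bp from the MED10 summit, outside its trimmed stretch. The same word lay 78 bp from the MED23 summit.
MED25, chr3R:20008513-20008658: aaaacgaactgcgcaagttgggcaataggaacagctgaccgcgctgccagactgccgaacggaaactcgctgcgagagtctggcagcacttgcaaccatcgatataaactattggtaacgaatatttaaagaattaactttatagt
MED27, chr3R:5654894-5655094: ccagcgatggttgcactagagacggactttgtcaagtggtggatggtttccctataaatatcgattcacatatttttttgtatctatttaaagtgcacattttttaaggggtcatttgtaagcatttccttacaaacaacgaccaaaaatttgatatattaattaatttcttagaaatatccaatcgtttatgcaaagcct
MED17, chr3R:18188932-18189071: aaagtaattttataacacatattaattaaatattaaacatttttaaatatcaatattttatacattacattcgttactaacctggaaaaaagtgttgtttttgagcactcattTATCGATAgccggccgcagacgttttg
MED7, chr3R:10761033-10761147: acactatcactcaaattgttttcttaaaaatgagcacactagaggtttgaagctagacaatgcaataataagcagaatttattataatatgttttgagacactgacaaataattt
MED10, chr3L:16232039-16232083: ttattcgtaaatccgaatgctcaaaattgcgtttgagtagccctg
MED30, chr3L:654200-654362: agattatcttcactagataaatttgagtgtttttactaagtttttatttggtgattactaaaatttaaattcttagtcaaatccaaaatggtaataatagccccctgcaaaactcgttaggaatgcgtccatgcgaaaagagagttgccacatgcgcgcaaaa

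At 10 of the 29 Mediator genes (34.5%, exact 95% interval 17.9 to 54.3) an optimal summit lay at a start, against 17.9% of all protein-coding genes. The interval covers counting error over genes only, and genes that share a summit with a neighbour are not independent. The bound genes were MED25, MED23 and MED27 of the tail, MED7, MED10 and MED31 of the middle, MED17 and MED30 of the head, the backbone gene MED14 and the kinase module gene kto. Where the optimal set was replaced by regions in the top 3276 of both remaining replicates, with summits within 200 bp, the count fell to 4 without replicate 1, to 5 without replicate 2 and to 7 without replicate 3, where 11.6%, 12.4% and 13.8% of protein-coding genes were bound. Among optimal peaks found in the top 3276 regions of all replicates it was 4, against 10.7% of genes. In the strongest 1638 optimal peaks it was 5, where 1400 of the 13968 protein-coding genes were bound.

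**Figure D1:**
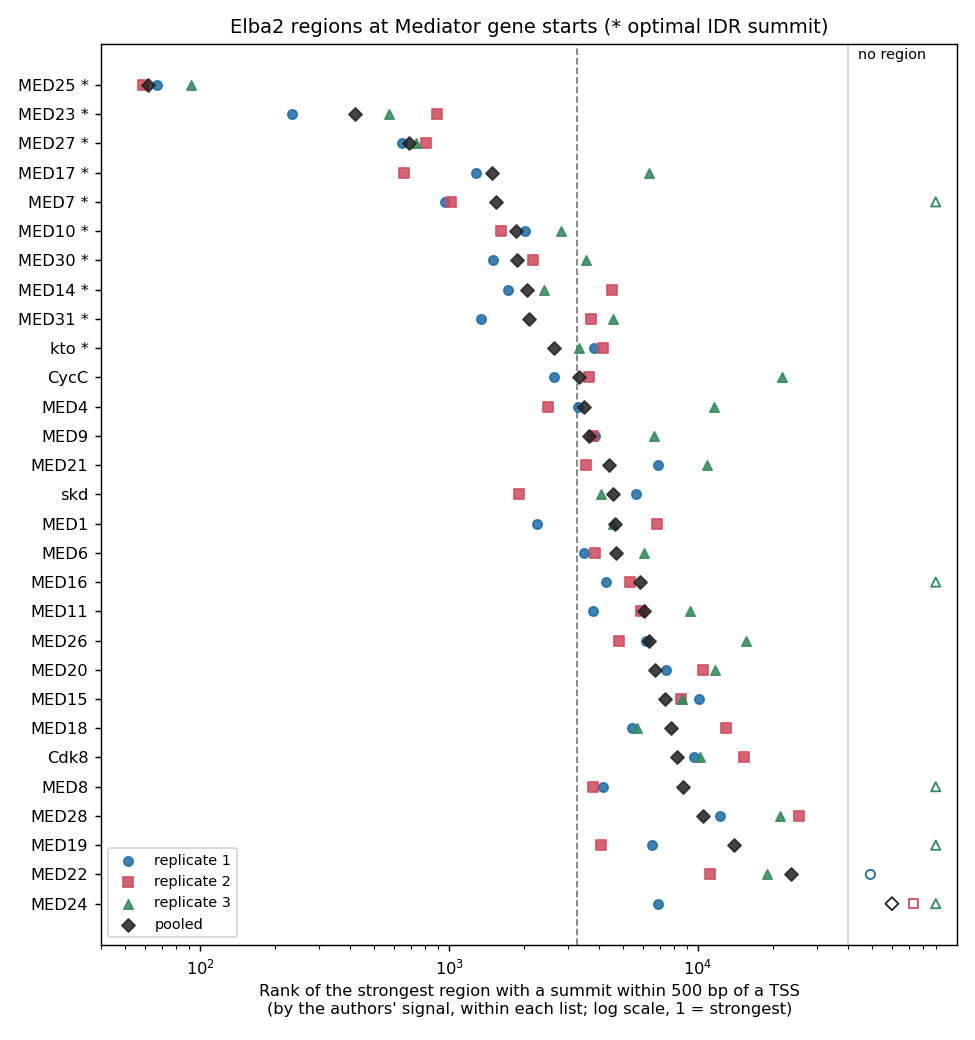
Rank of the strongest region with a summit within 500 bp of a start, for each of the 29 Mediator genes (rows, ordered by pooled rank) on a log scale, in the pooled list (diamonds) and in replicates 1, 2 and 3 (circles, squares, triangles). The dashed line marks rank 3276, open symbols mark lists with no region, and asterisks mark the 10 bound genes; MED25, MED23 and MED27 stay left of the line in every replicate.

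The tail module held the strongest summits, with 3 of 6 members bound, where 17.9% of all protein-coding genes were. Each of these 3 summits lay nearer to the start of a neighbouring gene than to that of the tail gene. MED25, a tail subunit contacted by activators in mammals, had a pooled signal of 557 and ranked 62 in the pooled list. Its signal in replicates 1, 2 and 3 was 236, 184 and 136, on each list's own scale. Its ranks there were 67, 59 and 92, and the 3 summits lay within 5 bp of each other. All replicates thus placed it among their strongest regions. The summit, at chr3R:20008558, lay 389 bp upstream of the MED25 start and 46 bp upstream of the start of Hs6st, a heparan sulfate sulfotransferase gene on the other strand. Only a summit of pooled rank 15226, 185 bp upstream, lay nearer to MED25 in the pooled list, so within 250 bp of a start MED25 was not bound. Of the replicates, replicate 1 alone listed a region there, at rank 1436.

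MED23, known in mammals as a contact of Ras-regulated activators, had a signal of 292 and pooled rank 418. It ranked 233, 894 and 575 in the replicates. Its summit, at chr2R:22888872, lay 56 bp upstream of the MED23 start and 15 bp upstream of Gmer, a gene of GDP-fucose synthesis, in a gap of 71 bp. MED27 had a signal of 238 and pooled rank 689, and its replicate ranks were 644, 805 and 737. Like MED25 and MED23, it was in the top 3276 of each replicate. The MED27 summit was nearly midway in a gap of 278 bp, 145 bp from the MED27 start and 133 bp from that of elm. MED16, MED15 and MED24 of the tail were unbound, with pooled ranks of 5824 and 7337 for the first pair. MED24 had no pooled region at its start and was listed only in replicate 1, at rank 6883.

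In the middle module 3 of 8 members were bound, against 17.9% of all protein-coding genes. MED7 (signal 165, pooled rank 1537) ranked 964 and 1016 in replicates 1 and 2, and replicate 3 listed no region within 500 bp of its start. Its summit lay 45 bp upstream of MED7 and 233 bp from the start of Cap-H2, a condensin II subunit gene. MED10 (149, rank 1849) was the weakest member found in the top 3276 of every replicate, with ranks of 2020, 1616 and 2807. The starts of MED10 and PDCD-5 stand 46 bp apart, and the summit lay between them. MED31 (140, rank 2089) ranked 1348 in replicate 1, and below 3276 in replicates 2 and 3, at 3704 and 4545. The replicate 3 summit lay 394 bp upstream of MED31, against 154 and 155 bp in the others, and its region nearest to the optimal summit ranked 13009. MED31 shares its start with slx1, a DNA repair nuclease gene, and its summit fell in the 5' untranslated region of CG9775 on the other strand.

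The head module had 2 of 10 members bound, close to the 17.9% of all protein-coding genes. MED17, a scaffold of the head, had a signal of 169 and pooled rank 1484. Its strongest regions ranked 1282, 658 and 6362 in the replicates. In replicate 1 the summit lay 50 bp upstream of MED17, but in replicates 2 and 3 the strongest lay 249 and 285 bp upstream, closer to CG12321. At the optimal summit itself, the ranks were 1282, 1075 and 6484. MED30, a subunit of animals not found in budding yeast, was assigned to the head here. It had a signal of 148 and pooled rank 1876, and ranked 1500, 2168 and 3544. Its summit was 211 bp from MED30 and 63 bp from Rev1, a translesion DNA polymerase gene.

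MED14 and kto differed from the other bound members in having no second gene start within 500 bp of the summit. The MED14 summit (chr3L:593410, signal 141, pooled rank 2056) lay 164 bp downstream of the start, in the 5' untranslated region. It ranked 1730, 4514 and 2402, and thus fell outside the top 3276 in replicate 2. The kto summit (chr3L:19836692, signal 123, rank 2646) lay 78 bp downstream, in coding sequence. It ranked 3832, 4133 and 3332 in the replicates, outside the top 3276 in each, and was the only bound member of which this held. In single replicates the ranks of bound and unbound members overlapped.

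**Figure D2:**
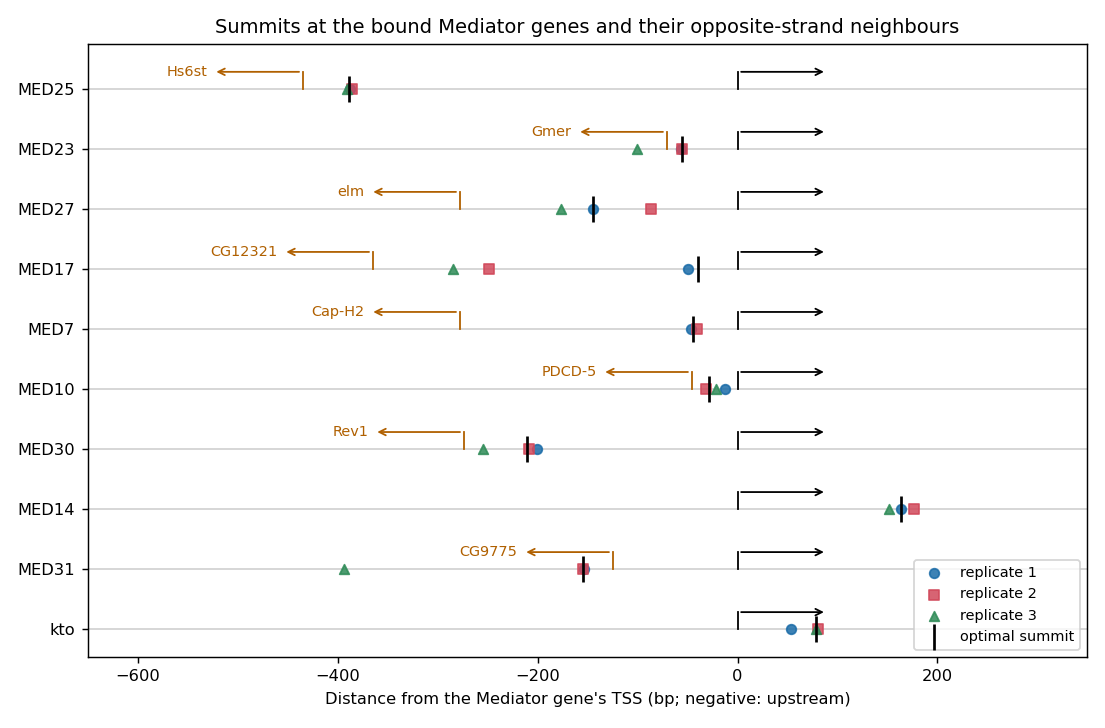
Position of the optimal summit (black bar) and of the strongest region within 500 bp in replicates 1, 2 and 3 (circle, square, triangle) at the 10 bound Mediator genes, in bp from the Mediator start (black arrow). Brown arrows mark the nearest opposite-strand coding start within 500 bp; 8 of 10 summits lie upstream of the Mediator start, and those of MED17 and MED31 differ most between replicates.

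Of the kinase module, kto alone was bound, yet skd held 2 optimal summits inside its introns. The first, at chr3L:21025621 (signal 169, rank 1485), lay 583 bp from a skd start and so just outside the limit. It ranked 2046, 1148 and 1118 in the replicates. The second, at chr3L:21011063 (197, rank 1041), lay 15141 bp from a start and ranked 1218, 1270 and 1005. Each was in the top 3276 of every replicate, which held for 4 of the 10 bound members. With a limit of 1000 bp, skd became bound and the count rose to 11, against 21.0% of genes. At the skd starts themselves the strongest region ranked 4556 in the pooled list. CycC and Cdk8, which form the cyclin and kinase pair, had pooled ranks of 3315 and 8216.

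Unbound members mostly carried pooled regions at their starts, which by definition of the optimal set rank below 3276. In the pooled list 28 of 29 members had a region within 500 bp of a start (96.6%), against 53.2% of protein-coding genes. Just below the last optimal rank of 3276 stood CycC (signal 108), then MED4 (105, rank 3477) and MED9 (102, rank 3646), with the lowest signal of the optimal set at 109. CycC ranked 2630, 3640 and 21763 in the replicates and MED4 ranked 3285, 2498 and 11584, so both were weak in replicate 3. MED21, skd, MED1 and MED6 followed between ranks 4400 and 4697. MED16, MED11, MED26, MED20, MED15, MED18, Cdk8 and MED8 ranked from 5824 to 8698. MED28, MED19 and MED22 came last, at 10470, 13989 and 23608. MED26, the subunit linked to elongation factors in mammals, is the only member on chromosome 4. MED19, a partner of Hox proteins in flies, lay farthest from an optimal summit, at 76517 bp. In all 3 replicates 23 members had a region at a start, in 2 of them 5 members, and in 1 of them MED24. No share of all protein-coding genes is available beside these counts, and the lists hold background as well as peaks.

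Among the 28 members with a pooled region, the bound share was 35.7%, against 33.6% of the protein-coding genes with such a region. The share among Mediator genes was thus near that of other genes whose starts appear in the pooled list at all. The members' strongest pooled region had a median rank of 4478, against 5680 over all protein-coding genes with a region. Over those that also had an opposite-strand start within 500 bp it was 3435, which is stronger than the members' median. Taking the strongest 10000 pooled regions, 86.2% of members had a region at a start, against 36.3% of protein-coding genes and 68.0% of those with an opposite-strand start within 500 bp. Taking the strongest 1000, the shares were 10.3%, 6.29% and 14.2%. Pooled summits lay upstream of the start for 21 of 28 members (75.0%), against 66.6% of protein-coding genes with a region.

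**Figure D3:**
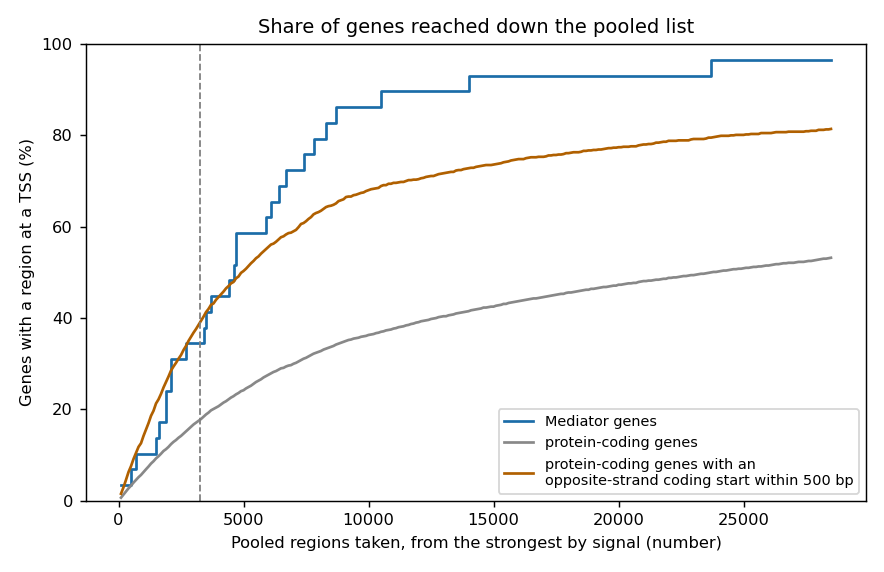
Share of genes (%) with a pooled region at a start as more pooled regions are taken from the strongest down, for the 29 Mediator genes (blue steps), all protein-coding genes (grey) and those with an opposite-strand coding start within 500 bp (brown). The dashed line marks 3276 regions; at 10000 regions the Mediator genes stand at 86.2%, above both other curves.

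The replicates differed in how far Mediator genes stood above other genes. In the top 3276 regions of replicate 1, 11 members (37.9%) had a summit at a start, against 18.7% of protein-coding genes. Replicate 2 had 9 (31.0%), against 17.4%. Replicate 3 had 5 (17.2%), against 16.0%, which is close to the level of all genes. Over the replicates the members' share was 28.7% ± 10.5 (SD, n = 3), and its excess over protein-coding genes was 11.4 ± 9.20 percentage points (SD, n = 3). The excess was positive in 3 of 3 replicates, but its mean was little larger than its spread and rested on replicates 1 and 2. In all 3 replicates at once, 4 members had a top region at a start (13.8%), against 10.9% of genes; these were MED25, MED23, MED27 and MED10. The 5 bound members in the top regions of replicate 3 were these 4 and MED14. No unbound member was in its top 3276, whereas replicates 1 and 2 each held 2.

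**Figure D4:**
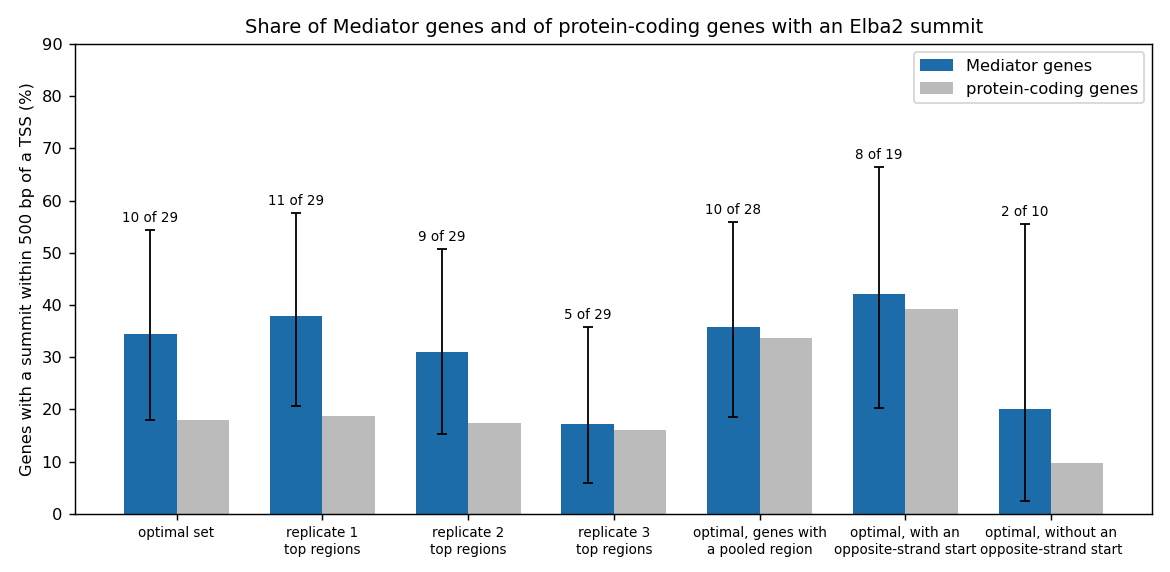
Share of Mediator genes (blue, with exact 95% intervals and counts) and of protein-coding genes (grey) with a summit within 500 bp of a start, in the optimal set, in the top 3276 regions of each replicate, and in the optimal set among genes with a pooled region or with and without an opposite-strand coding start. In replicate 3 (17.2% against 16.0%) and among genes with a pooled region (35.7% against 33.6%) the bars are nearly level.

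Mediator genes often start back to back with another gene. For 19 of 29 members (65.5%) a coding gene on the other strand started within 500 bp, as did 27.8% of protein-coding genes, and in each of these 19 the pair was head to head. Of the 19, 8 were bound (42.1%), against 39.2% of all protein-coding genes with such a neighbour. Of the 10 members without one, 2 were bound (20.0%), against 9.64% of genes without one. In the pooled list 19 of the 19 had a region, against 81.4% of genes with such a neighbour, and 9 of the 10, against 42.4% of genes without. Within arrangements, the bound share of Mediator genes was thus near that of other genes where a divergent neighbour was present. How far the arrangement accounts for the members' share was not tested.

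Divergent neighbours also leave it unclear to which gene a summit belongs. Of the 10 bound members, 8 shared the summit with a further coding gene, whereas 822 of 1927 optimal peaks at coding starts (42.7%) did so. That percentage counts a shared peak once, although it serves several genes, so it is not on the unit of bound genes. Counted by gene, 1522 of 2495 bound protein-coding genes had an opposite-strand start within 500 bp, as did 8 of the 10 bound members. The neighbour's start was the nearer for 6 bound members, which were MED25, MED23, MED27, MED10, MED30 and MED31. Counting each summit for its nearest coding start alone left 4 bound members, MED17, MED7, MED14 and kto. The same rule left 1814 bound genes among the 13968, in place of 2495. With the fragments of 200 to 800 bp from sonication, pairs such as MED10 with PDCD-5 or MED23 with Gmer cannot be told apart. A short gap did not always come with a bound summit. CycC starts 26 bp from UQCR-C1, a subunit of respiratory complex III, MED6 19 bp from Naa80, an actin acetyltransferase, and MED20 47 bp from Trf, a TBP-related factor, and these 3 members were unbound. MED9, which faces the nucleoporin gene Nup75 and shares its start with a transcript of CG42518, was unbound too.

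The 10 bound starts were searched within 100 bp of the summit, on both strands, for 6 words. CCAATAAG, the ELBA site, CCAATTGG, the palindrome of the related protein Insensitive, and CCAATAGG lay at none of them. At all 1927 optimal peaks with a coding start within 500 bp the shares were 4.77%, 7.63% and 2.49%. A count of 0 in 10 peaks allows a share of up to 30.0%, so no difference was detectable for these words. With at most 1 mismatch, the ELBA site was found at MED10 alone and the palindrome at MED23 alone, each 1 of 10, against 30.3% and 26.4% of the 1927 peaks. The M1BP word GGTCACAC lay at MED23 and MED10, 78 and 34 bp from the summit, against 10.6% of peaks. The DRE word lay at MED17, 16 bp from the summit, against 8.51%. The GAGA repeat GAGAGAGA lay at none, against 2.13%. At 7 of the 10 summits, MED25 and MED27 included, there was no searched word.

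Over all members, bound or not, the M1BP and DRE words were counted in the promoters as well. From 250 bp before to 50 bp after the most upstream start, 9 of 29 members (31.0%) had GGTCACAC, against 7.69% of protein-coding genes and 14.5% of those with an opposite-strand start. These were MED8, MED10, MED11, MED15, MED19, MED20, MED22, MED23 and MED24, of which MED10 and MED23 were bound. TATCGATA was in 7 (24.1%), against 9.36% and 17.2%, namely MED7, MED8, MED9, MED17, MED18, MED25 and MED28. Of these MED7, MED17 and MED25 were bound. The ELBA site, the palindrome, CCAATAGG and the GAGA repeat were in no member promoter, against 0.974%, 0.945%, 0.372% and 3.03% of protein-coding genes. A count of 0 in 29 promoters allows up to 10.3%.

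The same count was made for genes whose products work beside Mediator. Of 23 such genes, which encode transcriptional kinases, pausing and elongation factors and cohesin with its loader, 8 were bound (34.8%), against 17.9% of protein-coding genes. A pooled region lay at a start of 21 of the 23, against 53.2% of protein-coding genes. The 8 bound genes were among these 21, and of all protein-coding genes with such a region 33.6% were bound. The strongest of the 8 bound genes were Hexim and Larp7 of the 7SK complex that holds back P-TEFb (signal 315 and 255, pooled ranks 354 and 601). Nelf-A of the pausing factor NELF (234, rank 713) and the kinase gene Cdk12 (227, rank 761) followed. Su(Tpl) (170), Spt5 (124), lilli (122) and NELF-B (114) were weaker. In the strongest 1638 optimal peaks the count was 5, where 1400 of the 13968 protein-coding genes were bound. It was also 5 without replicate 1 and without replicate 2, against 11.6% and 12.4% of genes. Counting each summit for its nearest coding start alone, it was 4, against 13.0% of genes. Among the unbound were Cdk7, Cdk9 and CycH, with pooled ranks of 14645, 6045 and 8841, and the matched cohesin genes SMC1, SMC3 and vtd with the loader gene Nipped-B. Of the 8 summits, only that of Hexim had no further coding gene within 500 bp.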

How the data were processed

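Elba2 binding was measured in 3 replicates of 1 group. Per the notes deposited with the lists, the authors made permissive lists of peaks and background from each replicate's alignments and from the pooled ones, and took an optimal set by IDR. The notes give a further input file, also listed for the control-normalised signal and not used here. No aligner, caller or IDR threshold is given in the sources used here. The authors' deposited signal value, of unstated scale, was used to rank regions within a list; the deposited −log10 q-value column only broke ties, and the deposited summit offset gave the summit. The 3276 optimal regions are the 3276 pooled regions of highest signal.

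Genes came from Ensembl release 115 (BDGP6) and sequence from the Release 6 genome of RefSeq. All 29 members had the same coordinates in both, and no region ended beyond an arm. Summits at most 200 bp apart were treated as 1 site, and each replicate was taken at its top 3276 regions. Members were assigned to modules from the textbook structure of Mediator, and the counts per module rest on that assignment. Bound and unbound members were all accounted for by name, and a partner list of 24 genes matched 23, SA being unmatched. A further partner gene, outside these 24, is not reported here. The members and lists were chosen with earlier results of these data known, and the pooled and divergent references, ix, the 1-mismatch search and the nearest-start count were added after values were seen. With 1 group, no test was made, and shares are set beside those of all protein-coding genes. Exact Clopper-Pearson intervals used scipy 1.17.1, under Python 3.11.15. The functions were tested on simulated data. Lists on dm3 were not used here.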

Additional observations from a re-analysis of the deposited data

How the results depend on the processing

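The count of bound Mediator genes was 9 with 250 bp (14.5% of protein-coding genes), 11 with 1000 bp (21.0%), 9 with the start inside the peak (13.2%) and 10 with the most upstream start (16.5%) or with ix added. It was 5 in the strongest 1638 optimal peaks (1400 of 13968 genes), 4 in the top regions of all replicates (10.7%), 4 with the nearest start only (1814 of 13968 genes), 8 and 2 within genes with and without an opposite-strand start, and 4 to 7 when 1 replicate was left out (11.6% to 13.8%). The nearest-start, opposite-strand, pooled-reference and ix settings were chosen after seeing the data. The cause was not tested. Only MED23 and MED27 of the 10 were bound under each of the 9 planned settings, and neither was with the nearest start only. Of the 19 unbound members only skd changed, at 1000 bp. Settings with a shorter distance, fewer optimal peaks or 1 start per gene could not add a gene, so they do not bear on unbound members. Modules with a bound member fell from 5 to 3 in the strongest 1638 peaks, to 2 in the top regions of all replicates and to between 2 and 3 without 1 replicate. The partner count fell from 8 to 5 in the strongest 1638 peaks and in the top regions of all replicates, and to between 5 and 7 without 1 replicate, while the share of all genes fell as given above.

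Members with a top region in a replicate averaged 8.33, and 3.67 with the top 1000 and 17.3 with the top 6000 regions, by construction of the lists, and 7 to 10 without 1 replicate. Opposite-strand starts within 250 bp were found at 10 members in place of 19. For these alternative settings no share of all protein-coding genes was computed. Peaks with a searched word numbered 2 to 4 with windows of 50 or 200 bp. Of 54 single pooled ranks under other distances, 3 moved beyond the replicate spread (MED25, MED26 and skd). MED22 and skd had no pooled region within 250 bp of a start and gave no rank there. Members with a pooled region thus fell from 28 to 26 at that distance, while the share of all protein-coding genes fell from 53.2% to 42.1%. No paired analysis was possible because the samples form 1 group. Unknown read depth limits how weak regions can be compared.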
